A study of Mus musculus with 26 samples.

Results

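The comparison covered the 4 hearts whose titles mark them as heterozygous and the 5 whose titles mark them as wild-type, 9 of the 13 hearts and 18 of the 26 arrays of the series. The hearts were taken from the sample titles alone, with no measured value used. The series profiled whole mouse hearts at embryonic day 12.5 from a line in which the cardiac homeodomain factor Nkx2.5 lacks its NK2-specific domain. Wild-type embryos carried the intact gene and heterozygous embryos carried the deletion on 1 copy. The 4 null hearts of the series entered the fit to estimate the spread between hearts. They also counted towards the noise, the floor and the choice of tested probe sets. With the null hearts left out of the fit, 4173 probe sets were tested instead of 4494. The wild-type hearts were numbered 1, 2, 7, 9 and N1 and the heterozygous hearts 5, 6, 12 and N2. Strain, sex, litter and pooling were not given in the sources used here, and nothing shows that hearts came from separate litters; every p-value therefore speaks only of the variation among these hearts. The annotation assigned 0 probe sets to Nkx2-5, and the targeted gene itself was not analysed here.

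Nkx2.5 is a homeodomain transcription factor of the heart. It binds DNA next to GATA and T-box factors and is needed for chamber growth, conduction tissue and the expression of natriuretic peptides, connexins and contractile proteins. The NK2-specific domain is a short conserved stretch beside the homeodomain that is shared by factors of the NK2 class. In people, loss of 1 working copy of the gene is a known cause of septal defects and conduction block, which is why the heterozygous state is of interest on its own.

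Total RNA of each heart was hybridised to both designs of an oligonucleotide array pair, A with 6584 and B with 6595 probe sets. The values are intensity on a linear scale and can be negative. Many cells were blank. The A arrays of heterozygous hearts 6 and N2 lacked 71.8% and 62.5% of their values, and that of wild-type heart 1 lacked 81.3%. On B, wild-type hearts 9 and N1 each lacked 71.4%, while no heterozygous B array had a blank cell. Values under a floor of 2 times the noise (887 on A, 1373 on B) were raised to it before log2, and 4494 probe sets were tested, 2771 on A and 1723 on B. Of these, 1289 (28.7%) had a value in all 9 hearts, 3048 (67.8%) had at least 3 values in both genotypes, and 1428 (31.8%) had heterozygous values only from hearts 5 and 12. In 86 of these a gene rested on 2 hearts against 2.

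**Figure D1:**
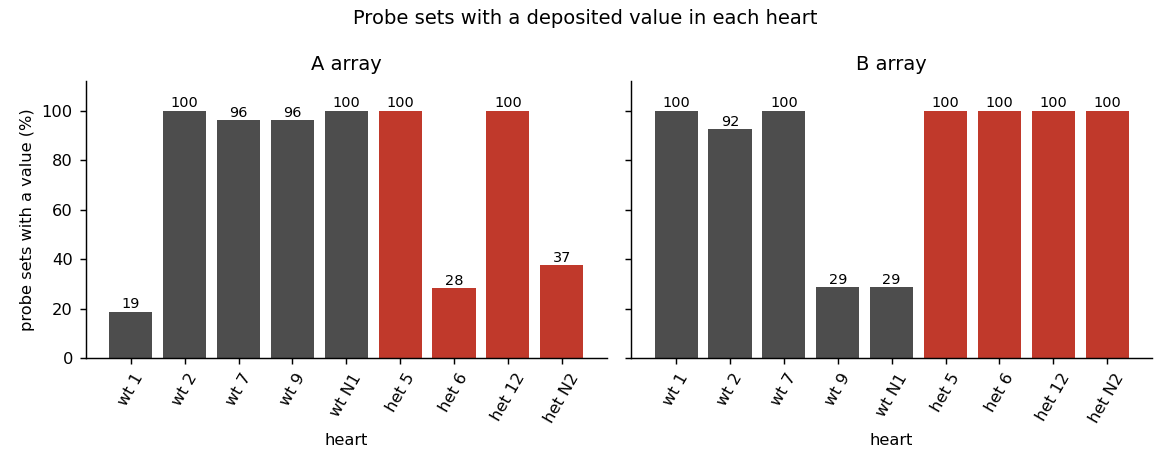
Bars give the percentage of probe sets with a deposited value in each of the 5 wild-type hearts (grey) and 4 heterozygous hearts (red) on the A and B arrays. Wild-type heart 1 and heterozygous hearts 6 and N2 are mostly blank on A, and wild-type hearts 9 and N1 are mostly blank on B.

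Some arrays stood apart. The B arrays of wild-type hearts 7 and 9 and heterozygous heart 12 had the lowest highest signals, 49132, 36247 and 46600, against 73894 to 276817 on the other B arrays of these genotypes. The log2 ratio of 3' to 5' beta actin signal, a measure of RNA integrity, was highest in heterozygous heart N2, at 1.002 on A and 1.03 on B. The same ratio for Gapdh on A was 0.0019 ± 0.0688 (SD, n = 4) in heterozygous and -0.154 ± 0.0875 (SD, n = 5) in wild-type hearts, with every heterozygous heart above every wild-type heart. Its exact two-sided permutation p was 0.0159, the smallest that 4 against 5 hearts can give, and 0.159 after Benjamini-Hochberg adjustment over the 10 measures. On B the exact permutation p was 0.714 for the same ratio. The part of RNA integrity in the A array differences below was not tested.

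No probe set separated the genotypes after correction. With limma over all 4494 probe sets, 0 (0%) passed an adjusted p of 0.05. At an unadjusted p of 0.05, 72 (1.6%) were higher and 80 (1.78%) were lower in heterozygous hearts, 152 in all. The split depended on scaling: 47.4% of these lay on the higher side as deposited, 63.8% after quantile scaling and 36.8% after median scaling. The median log2 difference over all probe sets was -0.01, and 95.7% lay within 0.5 of 0. Only 16 lay beyond 1, and 12 of those had 2 heterozygous values. The median standard error was 0.19 where all 9 hearts had values and 0.23 where only 2 heterozygous hearts did. Every adjusted p of a gene below was 0.981 or above unless another value is given, so the differences are described as values and not as changes.

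**Figure D2:**
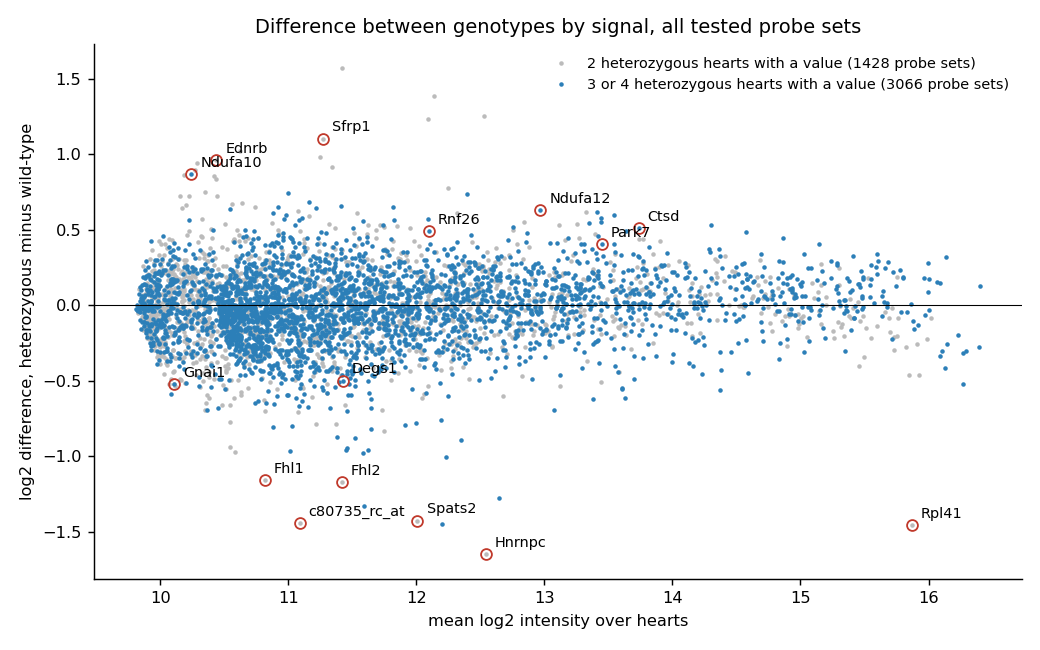
Each point is a tested probe set. The horizontal axis is the mean log2 intensity over the hearts with a value, null hearts included. The vertical axis is the log2 difference, heterozygous minus wild-type. Grey points rest on 2 heterozygous hearts and blue points on 3 or 4; the circled Hnrnpc, Spats2, Rpl41, Fhl2 and Sfrp1 points, all beyond 1, are grey.

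The gene with the smallest p among those above wild type was Ndufa12, an accessory subunit of respiratory complex I. Its intensity was 10699, 10746, 9749 and 11152 in heterozygous hearts 5, 6, 12 and N2. In wild-type hearts 1, 2, 7, 9 and N1 it was 6217, 5409, 8386, 8173.5 and 6380.2. The groups did not overlap, and the wild-type hearts with the highest values were 7 and 9. This is a log2 difference of 0.63 ± 0.16 (SE), with a 95% interval from 0.30 to 0.96 and an adjusted p of 0.981. The null hearts had a mean of 7522 ± 1253 (SD, n = 4). Within hearts 1 to 6 the log2 difference was 0.89, within hearts 7 to 12 it was 0.24, and between N2 and N1 it was 0.81.

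Ndufa10, another accessory subunit of complex I, had values in 3 heterozygous and 4 wild-type hearts. Heterozygous hearts 5, 12 and N2 stood at 1972, 2062 and 1722. Wild-type hearts 2, 7, 9 and N1 stood at 1735, 501, -369 and 59.5, so 3 of 4 were under the floor and heart 2 fell among the heterozygous values. The log2 difference was 0.87 ± 0.24 (SE), and it was 1.57 with a floor of 1 times the noise. Complex I as a list had 12 of 18 tested genes with a positive difference and a median of 0.09, against 1344 of 2733 and a median of -0.01 over all genes. Ndufa12 and Ndufa10 were its 2 members under an unadjusted p of 0.05, both higher; over all 2733 genes 41 were higher and 47 lower at that p. Ndufa5 was at 12175, 12469 and 11955 in the heterozygous hearts and 11890, 6870.0, 10924 and 9503 in wild-type hearts 2, 7, 9 and N1, a log2 difference of 0.35 ± 0.19 (SE) that was 0.19 without heart 7.

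The other respiratory lists lay on the same side. Complexes II and III with cytochrome c had 6 of 10 genes above 0 and a median of 0.12, complex IV had 8 of 13 and 0.09, and complex V with ATP export had 11 of 15 and 0.17. These medians stayed positive in every alternative tried, all of which reuse the same hearts. The lowest was 0.0053, for complex IV without the B arrays of hearts 7, 9 and 12. Only hearts 5 and 12 gave heterozygous values for 1 of 10, 4 of 13 and 10 of 15 of these genes, in the order above. Such genes drop out of a list when either heart is left out. In complex III, Uqcrq was at 13632 ± 1077 (SD, n = 4) in heterozygous and 10684 ± 3739 (SD, n = 4) in wild-type hearts, and wild-type heart 2, at 16147, was the highest of all. Its log2 difference of 0.41 became 0.25 with the sets of heart numbers as a block, 0.62 when heart 2 was left out, 0.27 when heart 9 was, and 0.83 after quantile scaling.

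The medians of the citric acid cycle and fatty acid oxidation lists lay under 0, but not in every alternative. That of the citric acid cycle was 0.01 without wild-type heart 2, and that of fatty acid oxidation was 0.10 without heterozygous heart 5. In the citric acid cycle, 5 of 14 genes were above 0 and the median was -0.10. Cs, the citrate synthase that opens the cycle, was at 7894, 8029, 4179 and 5617 in heterozygous hearts 5, 6, 12 and N2 and between 8444 and 9070.2 in the 4 wild-type hearts with a value. Heart 12 was the lowest, and the log2 difference was -0.49 ± 0.18 (SE). It was -0.30 after quantile scaling and also without heart 12. Dld, a shared subunit of the 2-oxoacid dehydrogenases, was at 2730.4 and 2834 against 4602 and 3347 in 2 hearts of each genotype, a log2 difference of -0.50, or -0.76 with the sets of heart numbers as a block. Among 18 fatty acid oxidation genes 8 were above 0, with a median of -0.05. Eci1, an enoyl-CoA isomerase of mitochondria, was at 2240.1 ± 393 (SD, n = 4) against 1594 ± 126 (SD, n = 3), without overlap. Acadm, the medium-chain acyl-CoA dehydrogenase, was at 4274 and 3970.1 against 5116 to 5462, a log2 difference of -0.37 ± 0.16 (SE); its B array probe set gave -0.08. In the glycolysis list, 8 of 16 genes were above 0 and the median was -0.02. Its 2 most separated members lay on opposite sides: Slc2a1, the glucose transporter GLUT1, was at 5760.2 and 7195 against 4258 to 5478, and Pgam1, a phosphoglycerate mutase, was at 4149 ± 989 (SD, n = 4) against 5223 ± 868 (SD, n = 5), a log2 difference of -0.35 that was -0.20 without heart 12.

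Besides Ndufa12, the genes with values in all 9 hearts and no overlap included Ctsd, Rnf26 and Park7 above wild type. Of the 1289 probe sets with all 9 hearts, 13 had every heterozygous heart above every wild-type heart and 6 had every one below. Together their share did not exceed 0.0159, the exact two-sided permutation p of full separation between groups of these sizes. Lack of overlap alone therefore does not set a gene apart from unrelated labels. Ctsd encodes cathepsin D, an aspartic protease of lysosomes. Its intensity was 15571, 14767, 17716 and 16348 in heterozygous hearts 5, 6, 12 and N2 and 12686, 12351, 10106, 10914 and 10510.3 in wild-type hearts 1, 2, 7, 9 and N1. The highest wild-type values were those of hearts 1 and 2. On the log2 scale the groups differed by 0.51 ± 0.15 (SE). Null heart 8 had the highest value of the series, 20494.

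Rnf26 encodes an E3 ubiquitin ligase of the endoplasmic reticulum. It was at 4756, 4973, 4994.5 and 6275 in heterozygous and 3277, 3370, 3769, 3865 and 4385 in wild-type hearts, in the order above. Heart N2 was the highest of all and heart N1 the highest wild-type heart. Its log2 difference was 0.49 ± 0.14 (SE), and it was 0.55, 0.39 and 0.52 within hearts 1 to 6, 7 to 12 and N1 and N2. Its list, ubiquitin ligases and proteasome, had 20 of 39 genes above 0 and a median of 0.01.

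Park7 encodes DJ-1, a redox-sensitive protein that protects cells from oxidative stress. Heterozygous hearts stood at 12667, 12905, 12458 and 15756, and wild-type hearts at 11000.3, 10544, 8889, 8992 and 11394. Heart N2 lay far above the other heterozygous hearts, and the lowest of these was still above every wild-type heart. On the log2 scale the difference was 0.40 ± 0.13 (SE).

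**Figure D3:**
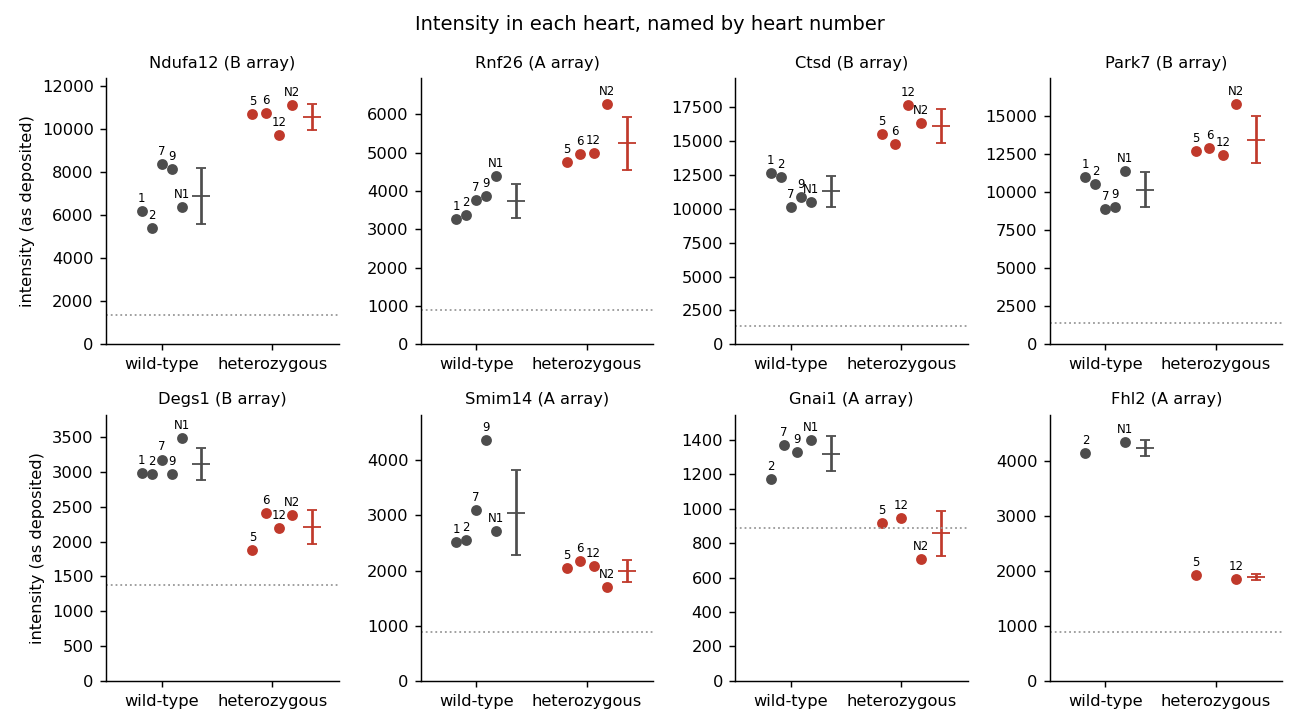
Points give the deposited intensity of 8 genes in each wild-type (grey) and heterozygous (red) heart, labelled by heart number; bars are the mean and SD, and the dotted line is the floor of the array. For Ndufa12, Rnf26, Ctsd and Park7 all 4 heterozygous hearts lie above all 5 wild-type hearts, for Degs1 and Smim14 they lie below, and Gnai1 and Fhl2 rest on 3 against 4 and 2 against 2 hearts.

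Taf10 and Oaz1 had values in 4 hearts of each genotype. Taf10, a subunit of the general transcription factor TFIID, was at 10284, 10693, 9591 and 11352 in heterozygous hearts and 8192, 8188, 8262 and 6904.5 in wild-type hearts 2, 7, 9 and N1. The groups did not overlap and heart N1 was the lowest. The log2 difference was 0.41 ± 0.13 (SE), 0.74 after quantile scaling and 0.27 without heart N2 and with the sets of heart numbers as a block. Oaz1, the antizyme that limits polyamine synthesis, was at 7934 ± 674 against 5910 ± 761 (SD, n = 4 each), a log2 difference of 0.43 ± 0.14 (SE). Its other 2 probe sets gave 0.08 and 0.18.

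Further leading genes above wild type rested on fewer hearts. Nid2, a basement membrane glycoprotein, was at 2306, 1660, 2204 and 1768 in heterozygous hearts 5, 6, 12 and N2 and 1052, 1429 and 1261 in wild-type hearts 1, 2 and 7, of which only heart 2 exceeded the floor. For Nid2 the log2 difference was 0.50 ± 0.15 (SE). S100a13, a calcium-binding protein, was at 1646 and 2138 in hearts 5 and 12 and 1620.1, -763, 597.5 and -320 in wild-type hearts 2, 7, 9 and N1, a log2 difference of 0.86 ± 0.26 (SE) that was 1.51 with a floor of 1 times the noise. A B array probe set of S100a13 with all 9 hearts gave -0.02. Aurkb, a kinase of mitosis, was at 1631 and 2014 against 1326, 928, 1148 and 1024, a log2 difference of 0.72 ± 0.23 (SE). The cell cycle list that holds Aurkb had 21 of 41 genes above 0 and a median of 0.01.

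Among the genes below wild type, Degs1 and Smim14 had all 9 hearts and no overlap. Degs1 encodes the desaturase that turns dihydroceramide into ceramide. It was at 1879, 2409, 2192 and 2380.3 in heterozygous hearts 5, 6, 12 and N2 and 2982, 2972.5, 3180.4, 2972 and 3495.5 in wild-type hearts 1, 2, 7, 9 and N1. Heart 5 was the lowest and the wild-type values were close together apart from heart N1. Its log2 difference was -0.50 ± 0.16 (SE), and a second probe set gave -0.43. Within hearts 1 to 6, 7 to 12 and N1 and N2 the differences were -0.48, -0.49 and -0.55. With a floor of 4 times the noise the value was -0.18.

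Smim14, a small membrane protein, was at 2045, 2167, 2074.5 and 1708 in heterozygous hearts and 2517, 2561, 3093, 4370 and 2716 in wild-type hearts. Wild-type heart 9 was the highest. The log2 difference was -0.58 ± 0.20 (SE), while the gene's other probe set gave -0.17. Slk, a Ste20-like kinase, was at 961, 799, 848 and 814 in heterozygous hearts, 3 of them under the floor, and 851.5, 1263, 1816, 1639 and 1395 in wild-type hearts. Wild-type heart 1 fell among the heterozygous values, and the log2 difference was -0.59 ± 0.17 (SE). The transcript 6430706D22Rik was at 1621 ± 357 (SD, n = 4) against 2437 ± 498 (SD, n = 5) and overlapped.

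Gnai1 encodes an inhibitory alpha subunit of heterotrimeric G proteins. Heterozygous hearts 5, 12 and N2 stood at 917, 945 and 706, the last under the floor, and wild-type hearts 2, 7, 9 and N1 at 1173, 1370.4, 1330.3 and 1401. The groups did not overlap, and the log2 difference was -0.52 ± 0.14 (SE). The 4 null hearts lay at 1071 ± 107 (SD, n = 4). Of the 16 genes of the G protein list, 6 were above 0 and the median was -0.17, negative in every alternative tried. Of these genes, 7 rested on 2 heterozygous hearts. Prkacb, a catalytic subunit of protein kinase A, was at 1691 ± 250 (SD, n = 4) against 2351 ± 592 (SD, n = 5), with wild-type heart 1 the lowest of all at 1366. Its log2 difference was -0.44, and -0.22 without the B arrays of hearts 7, 9 and 12. Ednrb, an endothelin receptor, lay on the other side, at 2129 and 2549 in hearts 5 and 12 against 1183, 921, 2103 and 478 in wild-type hearts 2, 7, 9 and N1. Its log2 difference was 0.96 ± 0.34 (SE). Endothelin and neural crest genes as a list had 5 of 10 above 0.

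Fhl2 and Fhl1 are LIM-only proteins of muscle that act as scaffolds at the sarcomere and in transcription. Fhl2 was at 1923 and 1844 in heterozygous hearts 5 and 12 and 4133 and 4338 in wild-type hearts 2 and N1, the only hearts of these genotypes with a value. For Fhl2 the log2 difference was -1.17 ± 0.31 (SE), with a 95% interval from -1.86 to -0.48. Null hearts 3, 4 and N3 had 2014.5, 3721 and 2388, so the null values covered the gap between the groups. Fhl1 was at 1361 and 1111 against 2410.5 and 3117 in the same hearts, a log2 difference of -1.16 ± 0.37 (SE) that became -0.71 with the sets of heart numbers as a block. A second Fhl1 probe set, with 3 against 4 hearts, gave -0.23 ± 0.16 (SE). Among 14 LIM domain genes 4 were above 0, and the median was -0.13, or -0.01 without heterozygous heart 12. Zyx, the focal adhesion protein zyxin, and Tgfb1i1, a paxillin relative, were on the higher side, with log2 differences of 0.32 and 0.53. Zyx had a value in 4 heterozygous and 5 wild-type hearts, which overlapped. Tgfb1i1 was at 3694 and 6063 in hearts 5 and 12 against 2930.1 to 3648 in 4 wild-type hearts, and its difference was 0.14 within hearts 1 to 6.

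For several of the largest differences 1 heterozygous heart stood apart from the other. Hnrnpc, which binds nuclear pre-mRNA, was at 49.4 in heart 5 but 7191 in heart 12, against 6581 to 9457 in 4 wild-type hearts. Its other 3 probe sets gave log2 differences of -0.10, -0.08 and -0.03 against -1.65 for this probe set. Spats2 was at 713 in heart 5 and 4006 in heart 12, against 4630.5 to 5510 in wild type, a log2 difference of -1.43, or -0.93 with a floor of 4 times the noise, and its other probe set gave 0.13. Psma3, a proteasome subunit, was at 132 in heart 5 and 2434 in heart 12, a log2 difference of -0.71, or -0.21 with a floor of 4 times the noise, and its other probe set gave -0.03. For Rpl41, a ribosomal protein, heart 12 was the low one, at 13574 against 52309 in heart 5 and 78787 and 67784 in wild-type hearts 2 and N1. Its log2 difference of -1.46 became -0.55 with the sets of heart numbers as a block. In Snap23, a SNARE protein of membrane fusion, hearts 5 and 12 were instead close together. They stood at 992 and 1078 against 1519 to 1766 in 4 wild-type hearts, a log2 difference of -0.66 ± 0.21 (SE).

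The probe set with the smallest adjusted p, 0.224, carried no gene symbol and is named here after its values were seen. The probe set c80735_rc_at was at 1034 and 868 in heterozygous hearts 5 and 12 and 2984, 2467, 2964 and 2099 in wild-type hearts 2, 7, 9 and N1. Heart 12 was just under the floor, and hearts 6, N2 and 1 had no value. The log2 difference was -1.44 ± 0.25 (SE), with a 95% interval from -1.97 to -0.91. With the sets of heart numbers as a block it was -1.55 and the adjusted p was 0.0639, and with a floor of 4 times the noise it was -0.55. Over all alternatives the adjusted p ran from 0.0639 to 0.985. The null hearts stood at 2477, 3167, 3241 and 2254.

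Among genes described in the literature as dependent on Nkx2.5, 17 of the 20 on the arrays were tested, 8 of them on 2 heterozygous hearts. Of the 17, 5 were above 0 and 12 below, with a median of -0.06. Over all genes 1344 of 2733 were above 0, with a median of -0.01. The median of the 17 ran from -0.12 to -0.0062 over the alternatives, which reuse the same hearts. At an unadjusted p of 0.05, 0 of the 17 were higher and 0 lower. Nppb, the B-type natriuretic peptide, was at 9991 (mean of hearts 5 and 12) against 8736 (mean of 4 wild-type hearts), a log2 difference of 0.22 with a 95% interval from -0.19 to 0.63. Gja1, connexin 43, was at 7302 against 7881 over all 9 hearts, and its log2 difference of -0.10 had an interval from -0.42 to 0.22. Gja5, connexin 40, gave -0.05 with an interval from -0.62 to 0.53. Its heterozygous hearts were split, at 2926.5 and 2374 in hearts 5 and 6 and 686 and 501 in hearts 12 and N2. The last 2 were under the floor and were raised to it. Wild-type hearts 1, 2 and 7 stood at 2353, 1714 and 1882.5. Kcne1, a regulatory subunit of cardiac potassium channels, gave -0.06 over all 9 hearts, with an interval from -0.38 to 0.26. The intervals allow differences of that size in either direction. Myl2 and Actc1, the ventricular myosin light chain and cardiac actin, had wide intervals, -0.93 to 0.95 and -1.03 to 1.29.

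Cardiac transcription factors and contractile genes lay on both sides of 0. Of 16 transcription factors and cofactors 7 were above 0, with a median of -0.05. Zfpm1, the GATA cofactor FOG-1, was at 2559 and 2272 against 1213 to 1833, a log2 difference of 0.65 ± 0.29 (SE), or 0.43 with a floor of 4 times the noise, while its other probe set gave -0.14. Gata6 was at 8658 over 2 heterozygous hearts against 6757 over 4 wild-type hearts, a log2 difference of 0.40 ± 0.29 (SE). Gata4 rested on 2 against 2 hearts, at 1502 and 415 in heterozygous hearts 5 and 12 and 1586 and 1223 in wild-type hearts 2 and N1. Heart 12 was under the floor, heart 5 fell between the wild-type values, and the log2 difference was -0.27 ± 0.34 (SE). Of 14 sarcomere and Z-disc genes 7 were above 0. Myh6, the alpha myosin heavy chain, was at 48438 against 51300.2, a log2 difference of -0.07 ± 0.33 (SE). Tnni3, cardiac troponin I, was at 40974 against 33736, a difference of 0.29 ± 0.23 (SE). Tnni2, the fast skeletal isoform of troponin I, was at 3055 and 2213 in hearts 5 and 12 and 2290.0, 993, 1201 and 1316 in wild-type hearts 2, 7, 9 and N1, with heart 2 among the heterozygous values and a log2 difference of 0.92 ± 0.40 (SE), or 0.46 with a floor of 4 times the noise. Null hearts 3, 4, 8 and N3 stood at 4959, 4184, 2997 and 9144 for the same probe set. In calcium handling, 7 of 15 genes were above 0. Atp2a2, the SERCA2 pump that returns calcium to the sarcoplasmic reticulum, was at 22312, 20597, 21426 and 19380.0 in heterozygous hearts and 20293, 27754, 27974, 21966 and 25791 in wild-type hearts. Heart 1 fell among the heterozygous values, and the log2 difference of -0.23 ± 0.12 (SE) was -0.02 after quantile scaling.

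**Figure D4:**
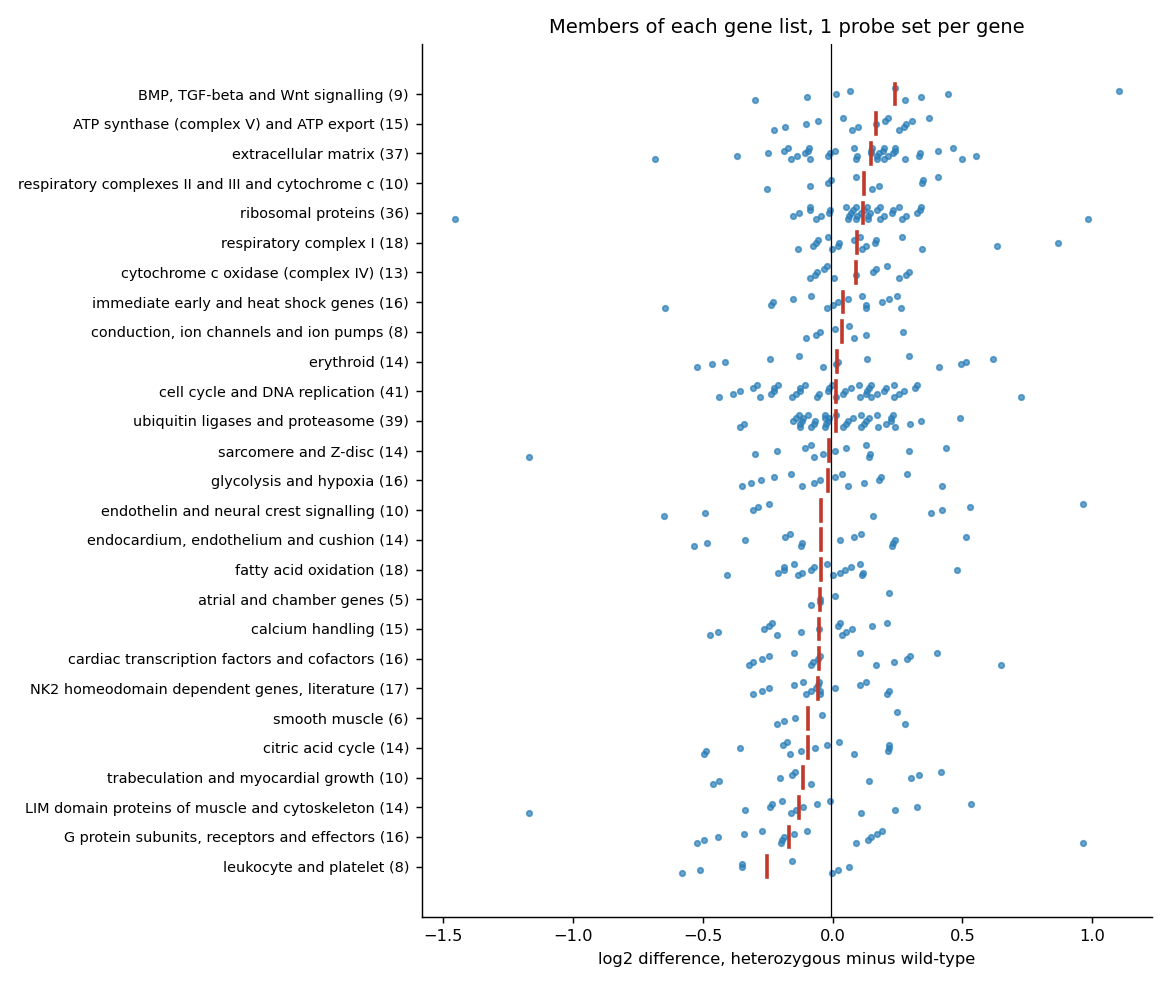
Each blue point is the log2 difference, heterozygous minus wild-type, of 1 gene in a list; red bars are list medians, the black line is the median of all genes, and the number of tested genes follows each name. Only lists with at least 5 tested genes are drawn, and their medians run from -0.25 for leukocyte and platelet genes to 0.24 for BMP, TGF-beta and Wnt signalling.

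In BMP, TGF-beta and Wnt signalling 7 of 9 genes were above 0, with a median of 0.24 that was 0.05 over the 7 genes tested with a floor of 4 times the noise and 0.10 over the 4 tested without heterozygous heart 12. Sfrp1, a secreted Wnt inhibitor, was at 3103 and 4690.3 in hearts 5 and 12 against 2673.5 and 1178 in hearts 2 and N1, and its log2 difference of 1.10 became 0.42 with the sets of heart numbers as a block. Bmp4 gave 0.44 ± 0.29 (SE) and Bmp7 0.34 ± 0.30 (SE). Of the 9 genes of this list, 5 rested on 2 heterozygous hearts. In the extracellular matrix 24 of 37 genes were above 0, with a median of 0.15. Col4a1, a chain of basement membrane collagen, was at 9048 and 11107.5 against 5989 to 8377, a log2 difference of 0.55 ± 0.19 (SE). Col5a1, a fibrillar collagen, lay on the other side, at 2736.5, 3289, 1528.5 and 2302 against 3157, 2711.5, 5701, 5017 and 3272. Its log2 difference was -0.68 ± 0.26 (SE), but it was 0.04 within hearts 1 to 6, and a second probe set gave 0.20. Endocardial and endothelial genes were split 7 to 7. Plxnd1, the semaphorin receptor of endothelium, was at 2445, 2052, 1627 and 1563 in heterozygous hearts and 1562, 1437, 1452 and 1223 in wild-type hearts 2, 7, 9 and N1, so that hearts N2 and 2 nearly met; the log2 difference was 0.42 ± 0.21 (SE). Npr3, a natriuretic peptide clearance receptor, was at 3393 and 3570.2 against 2214.5 to 2919, and its second probe set gave a log2 difference of -0.11. Emcn, the endothelial protein endomucin, was at 1044 ± 210 (SD, n = 4) against 787 ± 94.0 (SD, n = 5), a log2 difference of 0.23 that was 0.12 without heart N2. Only 3 heterozygous hearts and 1 wild-type heart exceeded the floor for Emcn, and with a floor of 1 times the noise its difference was 0.40.

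Ribosomal protein genes had 27 of 36 above 0 and a median of 0.12, which ranged from 0.0029 to 0.28 over the alternatives. Of their members 1 reached an unadjusted p of 0.05, Rpl41, on the lower side. Immediate early and heat shock genes had 10 of 16 above 0. Nr4a1, an early response nuclear receptor, was at 1382, 1357, 1346 and 1176 in heterozygous hearts and 1656, 1253.5, 3958, 3724 and 1169 in wild-type hearts. For Nr4a1 only heterozygous heart 5 and wild-type hearts 1, 7 and 9 exceeded the floor. Hearts 7 and 9 alone were high, and without the B arrays of hearts 7, 9 and 12 its log2 difference moved from -0.65 to -0.09; without wild-type heart 7 alone it was -0.43.

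The hearts carried the markers of heart tissue. All 11 cardiomyocyte markers on the arrays exceeded the floor in most of the hearts, as did 8 of 8 mesenchyme and cushion markers, 6 of 10 endothelial markers and 3 of 4 epicardial markers. Of 6 liver and 4 lung and foregut markers 0 did, but Afp exceeded the floor in 2 of 9 hearts, at up to 3658. Serpina1a and Sftpc did so in 1 heart each. The same count of markers over the floor in most hearts was 3 of 8 for skeletal muscle. It was 3 of 6 for leukocytes and platelets and 1 of 7 for neurons and glia. The summed level of 6 cardiomyocyte markers ran from 141235 to 311656 in heterozygous and 125268 to 504262 in wild-type hearts. The sum of Hba-a1 and Gata1 ran from 5958 to 60136 in heterozygous and from 2792 to 227332 in wild-type hearts. Gata1 was under the floor in all 9 hearts, so this sum was in effect 1 probe set, that of Hba-a1. Hbb-y ran from 27100 to 195501 over the 7 hearts with a value and Hba-x from 28403 to 67713 over 6. The part of blood in the differences was not tested. Erythroid genes as a list had 8 of 14 above 0 and a median of 0.02. Hbb-bh1, an embryonic beta globin, was at 15487.5, 13424, 14996 and 11733 in heterozygous hearts and 9968.5, 5510 and 13373 in wild-type hearts 1, 2 and 7, and its log2 difference of 0.62 was 0.26 without wild-type heart 2. Leukocyte and platelet genes had 2 of 8 above 0 and a median of -0.25 that was -0.0011 over the 3 genes tested with a floor of 4 times the noise; 7 of the 8 rested on 2 heterozygous hearts. Among them was Ptprc, the leukocyte antigen CD45, at 1965 against 3047. In bulk hearts, fewer cells of a type and less RNA per cell cannot be told apart. Xist, which marks female cells, was at 1282 and 1421 in hearts 5 and 12 and 491, 611.5, 1469 and 825 in wild-type hearts 2, 7, 9 and N1; the part of sex was not tested.

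Among the 3048 probe sets with at least 3 values in both genotypes, 40 (1.31%) had every heterozygous heart above every wild-type heart and 42 (1.38%) had every heterozygous heart below. Among the 1289 with all 9 hearts the counts were 13 and 6, and 13 of these 19 carried a symbol. The share of 19 in 1289 did not exceed 0.0159, the exact two-sided permutation p of full separation in 9 hearts so divided. Unrelated labels would thus give about as many. Those not described so far are named after their values were seen. Stard10, a lipid transfer protein, was at 3955 against 2759 on average, Tmsb10, which binds actin monomers, at 25608 against 20834, H3f3b, a histone H3.3 gene, at 18186 against 15157, and Prdx2, a peroxiredoxin, at 24645 against 21598. Below wild type were Gabarap, an autophagy protein, at 13375 against 17432, Hmgb3, a chromatin protein, at 5721 against 7208, and Iqgap3, a scaffold of dividing cells, at 1188 against 1662.

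**Figure D5:**
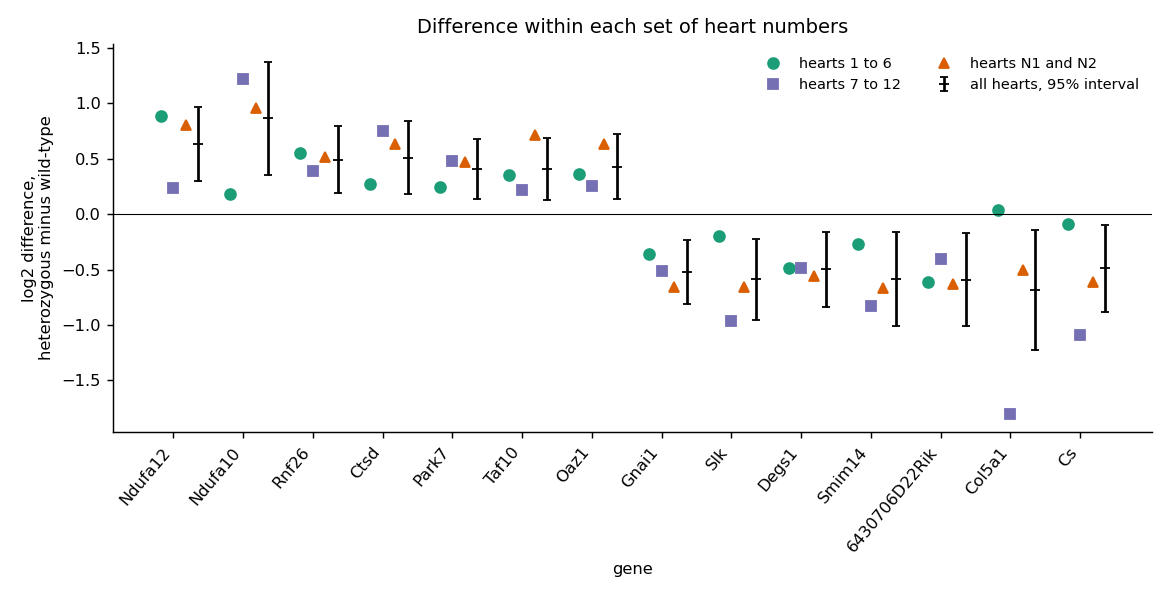
The vertical axis is the log2 difference, heterozygous minus wild-type, for 14 named genes; coloured symbols give it within each set of heart numbers and black bars give the value and 95% interval over all hearts. Hearts N1 and N2 are 1 heart per genotype, and the 7 to 12 set has 1 heterozygous heart; Col5a1 runs from 0.04 to -1.81 across sets.

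Nkx2.5 and its relatives bind the core AAGTG, preferably as TNAAGTG. The 250 bases before the annotated start are shown for the 4 named genes that had all 9 hearts without overlap and a single promoter entry next to the gene's annotated start in RefSeq (GRCm38.p6), so that the core can be seen beside their values. They lie at chr10:94198785-94199034 (plus strand), chr9:44113052-44113301, chr7:142387828-142388077 and chr4:150909922-150910171 (minus strand). Each reads 5′ to 3′ along its gene, and capitals mark AAGTG on either strand.
Ndufa12: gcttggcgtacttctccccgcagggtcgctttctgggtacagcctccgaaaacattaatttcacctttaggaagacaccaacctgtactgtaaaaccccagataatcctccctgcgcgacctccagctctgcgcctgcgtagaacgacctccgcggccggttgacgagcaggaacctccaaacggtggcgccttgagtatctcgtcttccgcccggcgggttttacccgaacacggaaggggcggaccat
Rnf26: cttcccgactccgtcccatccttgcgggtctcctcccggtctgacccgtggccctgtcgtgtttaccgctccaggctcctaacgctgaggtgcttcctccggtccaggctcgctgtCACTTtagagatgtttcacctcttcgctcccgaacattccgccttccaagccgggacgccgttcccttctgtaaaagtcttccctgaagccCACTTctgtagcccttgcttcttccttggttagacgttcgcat
Ctsd: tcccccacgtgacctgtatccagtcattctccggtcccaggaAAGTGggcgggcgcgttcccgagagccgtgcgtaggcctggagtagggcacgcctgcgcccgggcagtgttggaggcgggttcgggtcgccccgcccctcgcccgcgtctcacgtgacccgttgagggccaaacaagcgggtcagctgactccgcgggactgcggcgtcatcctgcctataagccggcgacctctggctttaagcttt
Park7: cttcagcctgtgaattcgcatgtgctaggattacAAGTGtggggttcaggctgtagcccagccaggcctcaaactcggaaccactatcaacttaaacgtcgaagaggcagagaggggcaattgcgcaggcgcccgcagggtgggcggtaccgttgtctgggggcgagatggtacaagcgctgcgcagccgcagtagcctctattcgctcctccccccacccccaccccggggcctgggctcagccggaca
The core was found in 3 of these 4 windows, Rnf26, Ctsd and Park7, and TNAAGTG in 1, Rnf26. With the windows of Degs1 and Smim14 added, the 6 named genes with 9 hearts and no overlap had 10 windows. Of these, 3 (30%) held AAGTG and 1 (10%) TNAAGTG. Over all 32851 promoter windows of this length, 40.7% held AAGTG and 10.1% held TNAAGTG on either strand. Of the 17 tested genes described as dependent on Nkx2.5, 14 matched a promoter entry, and 9 of their 20 windows (45%) held AAGTG and 1 (5%) TNAAGTG. A match describes only the letters of the window.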

How the data were processed

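Total RNA of 13 whole hearts was hybridised to an A and a B array each. The authors deposited intensity values on a linear scale, 1 per probe set and array, with negative values and blank cells; which software made them is not given in the sources used here. Hearts were grouped by the genotype in their titles. Blank cells were missing. Noise was taken per table from the negative values, as their root mean square (443 on A, 686 on B); values under 2 times the noise were raised to that floor, then log2 was taken. A probe set was tested with at least 4 arrays above the floor and 2 values in each genotype, null hearts included. The 55 control probe sets of each design were left out. Limma 3.58.1 in R 4.3.3 was fitted per table to all 13 hearts with a variance trend and two-sided moderated tests, Benjamini-Hochberg adjusted over both tables (threshold 0.05). Standard errors follow each probe set's pattern of blank cells. The fit was tested on simulated data. The number of arrays limits the precision.

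Symbols came from GEO's platform annotation, which can be old, updated by gene ID (5551 of 5560 IDs matched on A, 1993 of 2001 on B). Of the probe sets, 197 on A and 27 on B had several genes and 827 and 4567 had none, controls included. Named genes were the 10 smallest p in each direction, the 5 smallest with at least 3 values in both genotypes, and up to 4 per list with an unadjusted p under 0.1. A gene with several probe sets was named by the one with the smallest p, which leans towards larger differences. The Nppb, Gja1, Gja5, Kcne1, Myl2, Actc1, Gata4, Gata6, Myh6, Tnni3, Bmp4 and Bmp7 values were added for what these genes are. List counts use 1 probe set per gene, that with the highest mean signal. The comparison and the gene lists were chosen with earlier results of these data known, although the hearts themselves follow from the titles. Alternatives covered the floor, filters, scaling, sets of heart numbers, the variance trend, the null hearts and each heart left out.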

Additional observations from a re-analysis of the deposited data

Results flagged for a closer look

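Of 98 groups of 4 or 5 hearts examined on the floored log2 values and the array quality measures, 12 had a heart that met Dixon's criterion. In 7 of the 12 all the other hearts lay under the floor and were tied there, so that any heart above the floor meets the criterion, however close it is. These were Ndufa10 in wild-type heart 2 (1735, others -369 to 501), S100a13 in wild-type heart 2 (1620.1, others -763 to 597.5), Mcm6, a subunit of the replicative helicase, in wild-type heart 2 (2162, others 501.5 to 676), Emcn in wild-type heart 1 (918, others up to 822), Xist in wild-type heart 9 (1469, others up to 825), Slk in heterozygous heart 5 (961, others up to 848) and Nr4a1 in heterozygous heart 5 (1382, others up to 1357).

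Among groups not tied at the floor chance meets the criterion in about 1 in 20. In these, wild-type heart 2 was low for C1qb, a complement component of macrophages (849 against 1464 to 1536), wild-type heart 1 was low for Prkacb (1366 against 2309.8 to 2843), wild-type heart N1 was low for Taf10 (6904.5 against 8188 to 8262), and heterozygous heart N2 was high for Park7 (15756 against 12458 to 12905). The B array of wild-type heart 1 had the highest Gapdh log2 ratio of 3' to 5' signal, 0.0611 against -0.153 to -0.0951 in the other wild-type hearts.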

How the results depend on the processing

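The count of probe sets past an adjusted p of 0.05 stayed at 0 in 21 of the 22 alternatives. With no filter on signal it was 1, Adgrl1, an adhesion receptor, at a log2 difference of 0.25 and a limma adjusted p of 0.00169; limma warned that most residual variances were exactly zero there. Counts at an unadjusted p under 0.05 (72 higher, 80 lower) moved by over 1.5 times in some settings: with the sets of heart numbers as a block they were 116 and 141, and with a floor of 1 times the noise 137 were lower. Leaving out each heart in turn gave 43 to 115 higher and 38 to 152 lower; without heterozygous heart 12 they were 43 and 38, over 3033 tested probe sets, and without wild-type heart 2 they were 115 and 152. The 62 named probe sets kept their direction in all 1223 values under the alternatives, and none passed the threshold. They were named for their p in these same hearts, so the kept direction follows in part from that choice. Of the 1223 values, 49, in 30 probe sets, moved by over 1.5 times. Of 31 list medians, 14 kept 1 sign throughout and 17 did not. All alternatives reuse the same hearts, and the tested genes of a list differ between them, so a kept sign is not separate support. Leaving out the B arrays of hearts 7, 9 and 12, and heart N2 with the block, were chosen after seeing the data. No paired analysis was possible because no heart number occurs in both genotypes. Signal over background limits genes near the floor, where differences are understated, and 31.8% of tested probe sets rest on 2 heterozygous hearts.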
